A study of Mus musculus with 12 samples.

Results

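Brain-derived neurotrophic factor, its Trk receptors and a few further growth factors were read in hippocampi of mice that had lost CREB and CREM, and of their controls, after kainate or saline. The set comprised 7 genes: the neurotrophins Bdnf and Ntf3, the neurotrophin receptors Ntrk2 (TrkB) and Ntrk3 (TrkC), Inhba (the inhibin beta A chain, which forms activin A), Nrn1 (neuritin) and Fgf2 (basic fibroblast growth factor). A gene counted as measured where a probe set of the Affymetrix mouse array carried its symbol and no other. That held for 5 of the 7 genes, with 1 probe set each, among 8251 genes with a symbol of their own and 12422 probe sets in all. Ntf3 and Nrn1 had no such probe set and were not analysed here.

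There were 4 groups of 3 arrays: mutants given kainate, mutants given saline, controls given kainate and controls given saline. Per the series title, CREB and CREM, transcription factors activated by cAMP and calcium signals, were lost in the mutants. The alleles, the promoter of any Cre driver and the cells affected are not given in the sources used here. Kainate, a glutamate receptor agonist that evokes seizures, was injected into the peritoneum at 20 mg/kg, and hippocampi were taken 1 hour after the injection of kainate or saline. The animals were littermates of 5 to 6 weeks, males and females. RNA of 3 animals was pooled for each array, so a group stands for 9 animals and the spread between arrays is a spread between pools. In such bulk tissue, fewer cells of a type and less RNA per cell cannot be told apart.

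Neurotrophins are secreted growth factors that bind Trk receptor kinases. BDNF acts mainly through TrkB and neurotrophin-3 mainly through TrkC, and both receptors signal through adaptors to the MAP kinase, PI3 kinase and phospholipase C gamma pathways. In hippocampal neurons Bdnf is a well-known activity-regulated gene: calcium entry raises its transcription from several promoters, and CREB is among the factors that bind them. Activin A signals through serine-threonine kinase receptors to SMAD proteins, and Inhba, Nrn1 and Fgf2 are also known to respond to strong activity in the hippocampus.

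Any 2 arrays correlated at 0.973 to 0.998 over all probe sets, and no pair held identical values. The control kainate replicate 3 array stood apart in scale, with an interquartile range of 3.74 on the log2 scale, against 4.40 to 4.61 on the other 11. The replicate 1 arrays of all 4 groups deviated together from their group means, with correlations of 0.368 to 0.848. The 3 Creb1 probe sets differed by -0.09, -0.12 and -0.11 between mutants and controls (log2, averaged over treatments, adjusted p = 0.63 each) and the 2 Crem probe sets by -0.25 (adjusted p = 0.286) and -0.29 (adjusted p = 0.141). None of these 5 passed the limma test. Both Crem probe sets passed with array weights (-0.31, adjusted p = 0.0304, and -0.25, adjusted p = 0.0259), and the second also without control kainate replicate 1 (-0.34, adjusted p = 0.0465). These fits called 478 and 103 of 12422 probe sets for this comparison, against 76 in the main fit. The Creb1 probe sets were dim, at the 26.0 to 45.0 percentile, and the Crem probe sets stood at the 22.4 and 50.5 percentile. The Crem probe sets differed by -0.34 and -0.51 under kainate (limma adjusted p = 0.512 and 0.0889), against -0.16 and -0.08 under saline. Where on the genes the probes of Creb1 and Crem lie, relative to the disrupted part, is not given in the sources used here. Of 9 measured reference genes of neuronal activity, all 9 rose with kainate in both genotypes, by 1.62 (Egr1) to 5.80 (Fosb) log2 units averaged over genotypes. Of all probe sets 0.33% were called for kainate in controls and 0.298% in mutants. With its probe sets averaged, Egr1 rose by 0.82. Among markers of hippocampal neurons, Wfs1, Neurod2 and Camk2a stood at the 89.9, 70.8 and 66.2 percentile of all probe sets and Prox1 at the 44.1 percentile. The choroid plexus marker Ttr stood at the 97.2 percentile, and the mean of 3 choroid plexus markers ranged from 7.88 to 9.56 (log2) over the arrays.

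Bdnf was read by the probe set 102727_at (designed on X55573). The gene lies at chr2:109674700-109727043 on the plus strand of GRCm38.p6 in the RefSeq annotation. It has several alternative 5' exons that splice to 1 coding exon, and each 5' exon has its own promoter. The RefSeq table holds 7 Bdnf starts, and the probe set gives 1 value for the gene, so these data do not separate them. The 250 bases before each start were searched on both strands for the cAMP response element TGACGTCA, to which CREB binds, for the variant TCACGTCA and for the shorter motif TGACG, the core of both. None of the 7 windows held TGACGTCA, which occurs in 1.55% of 32851 such windows of all genes. The window before the third start held TCACGTCA, which occurs in 0.350% of all windows. An element of this sequence is known in the rodent promoter before Bdnf exon IV as a calcium and cAMP response element. That window, at chr2:109692186-109692435, is printed because it is the only one of the 7 with any of these motifs, and the one before the first start, at chr2:109674450-109674699, is printed for comparison. Both are on the plus strand, 5' to 3', and capitals mark TCACGTCA, which begins 38 bases before the third start.
Bdnf start 3: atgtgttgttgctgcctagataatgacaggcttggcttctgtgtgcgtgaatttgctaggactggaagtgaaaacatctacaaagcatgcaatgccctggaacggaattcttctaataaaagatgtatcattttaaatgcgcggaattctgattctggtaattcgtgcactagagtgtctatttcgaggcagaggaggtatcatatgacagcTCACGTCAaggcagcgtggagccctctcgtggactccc
Bdnf start 1: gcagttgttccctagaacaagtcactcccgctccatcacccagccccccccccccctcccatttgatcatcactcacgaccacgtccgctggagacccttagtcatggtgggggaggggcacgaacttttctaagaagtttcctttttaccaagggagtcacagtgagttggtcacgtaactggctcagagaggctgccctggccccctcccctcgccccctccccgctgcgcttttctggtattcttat
The core TGACG occurs in 17.8% of all windows. In the Bdnf windows it was found once, on the other strand within the TCACGTCA of the third start. These matches describe sequence only, and binding was not measured here.

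Bdnf was higher after kainate than after saline in both genotypes, with no overlap between kainate and saline arrays. In mutants it read 10.97, 11.69 and 11.40 after kainate, against 10.02, 10.75 and 10.75 after saline (log2 levels, replicates 1, 2 and 3). All 3 kainate arrays of the mutants lay above all 3 of their saline arrays. In controls it read 11.33, 11.97 and 11.55 after kainate, against 10.19, 10.93 and 10.65 after saline. The control groups did not overlap either, and the lowest of all 6 kainate arrays (10.97) lay just above the highest of all 6 saline arrays (10.93). Of the 5 members, Bdnf was the only one whose arrays separated in this way, in mutants (as did 4.98% of all probe sets), in controls (2.29%) and in both (0.628%).

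**Figure D1:**
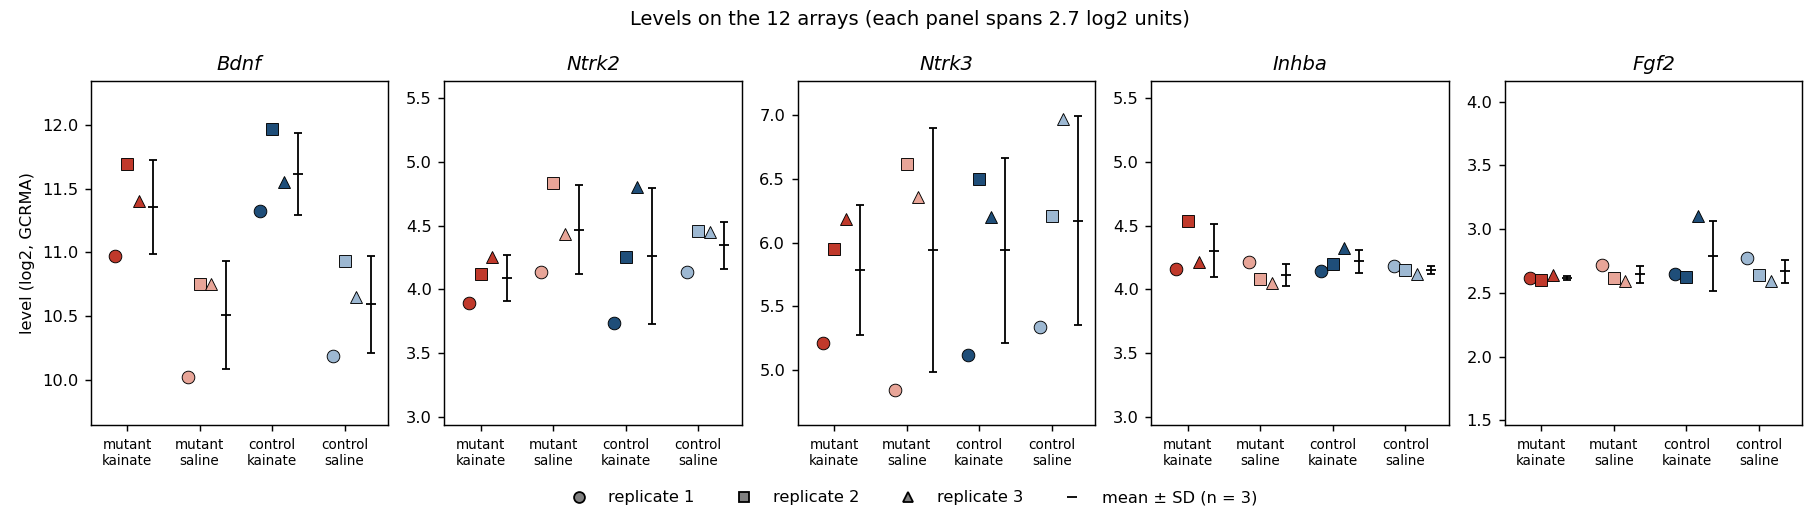
Log2 levels (GCRMA) of the 5 measured genes on the 12 arrays, with a panel for each gene, a symbol for each replicate number, and a bar for the mean ± SD of 3 arrays. All panels span the same number of log2 units. Bdnf stands between 10.97 and 11.97 after kainate and between 10.02 and 10.93 after saline, and the circles (replicate 1) are lowest in every group for Bdnf, Ntrk2 and Ntrk3.

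The kainate difference of Bdnf was 0.85 log2 units in mutants (SE 0.27, 95% interval 0.24 to 1.45, 1.80-fold) and 1.02 in controls (SE 0.27, 95% interval 0.42 to 1.63, 2.03-fold). In the limma fit across all probe sets neither passed the threshold of 0.05 (adjusted p = 0.505 in mutants and 0.354 in controls). Averaged over genotypes the difference was 0.94 (SE 0.19, 95% interval 0.51 to 1.36, 1.91-fold), 0.0569 after adjustment and so also not past it. None of the 5 members was called in mutants, in controls or in the average, where 0.298%, 0.33% and 0.942% of all probe sets were called. Without the array of narrow scale, control kainate replicate 3, it was 0.95 (limma adjusted p = 0.081). The averaged Bdnf difference ranked 49 from the highest among the 12422 probe sets and 130 by p. An exact permutation test of the treatment labels within genotype, two-sided, gave p = 0.005, the smallest that its 400 arrangements allow. Within a genotype, the exact permutation test of 3 arrays against 3 cannot go below p = 0.1, which both genotypes gave.

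The spread of Bdnf between arrays followed the replicate number. In each of the 4 groups replicate 1 was the lowest, on average by 0.59 log2 units relative to replicates 2 and 3. The replicate number accounted for 93.1% of the variance of Bdnf within groups, against a median of 20.8% over all probe sets. The SD within groups was 0.37, and 0.11 with the replicate number in the model. Between arrays of the same number the kainate difference was 0.95, 0.94 and 0.65 in mutants and 1.14, 1.03 and 0.90 in controls. All were positive, as any matching would give, because the kainate and saline arrays of Bdnf did not overlap. In the controls the numbers were not taken to pair. No sample label states a pairing. In the mutants the replicate numbers were taken to pair kainate with saline arrays, because same-numbered arrays deviated together in these data. Numbers 2 and 3 also did so across numbers: mutant saline 2 and mutant kainate 3 correlated at 0.506, above mutant saline 2 and mutant kainate 2 at 0.408. With the number as a block Bdnf rose in mutants (limma adjusted p = 0.00659, a fit that called 0.354% of all probe sets). The block was chosen from these same values, so its call is not independent of the replicate 1 shift.

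With replicate 1 set against replicates 2 and 3 as a fixed term, Bdnf rose in mutants (adjusted p = 0.0234), in controls (adjusted p = 0.00595) and on average (adjusted p = 0.000554). This fit in limma called 0.515%, 0.403% and 2.68% of all probe sets. No label sets replicate 1 apart, and the term follows the shift seen in these same values. Its calls are therefore not independent of that shift. Within replicates 2 and 3 alone the averaged difference was 0.88 (adjusted p = 0.0132, with 6.26% called). There the mutants (adjusted p = 0.114, with 0.757% called) and the controls (adjusted p = 0.0622, with 1.18% called) did not pass. What the number stands for, such as a day or a cohort of animals, is not given in the sources used here.

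**Figure D2:**
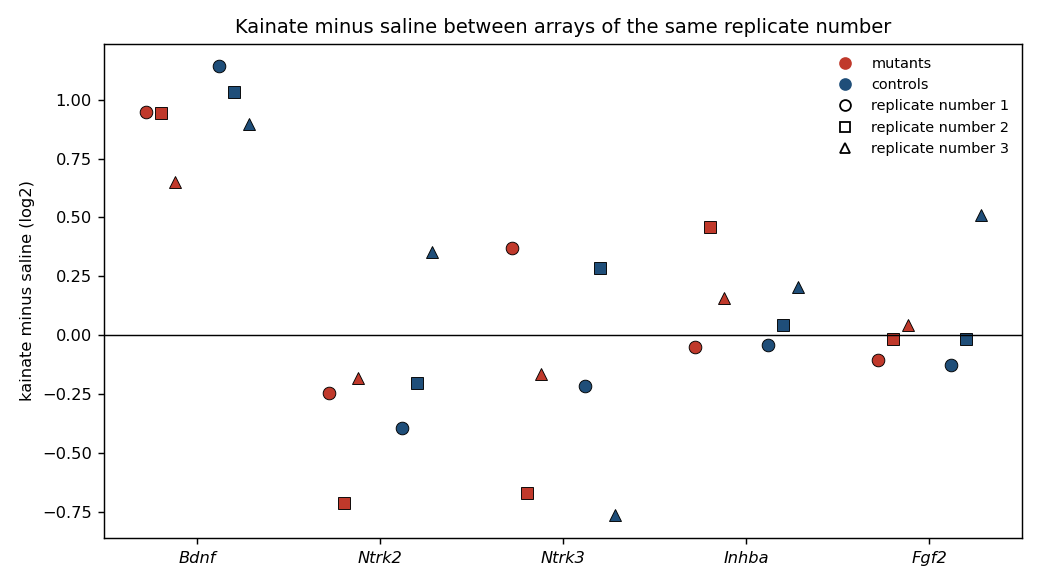
Kainate minus saline (log2) between arrays of the same replicate number, for the 5 measured genes, with mutants left of controls and a symbol for each number. The 6 Bdnf points lie between 0.65 and 1.14, while the points of each other gene lie on both sides of 0.

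Whether the loss of CREB and CREM changed Bdnf was read from the genotype differences and from their interaction with kainate. Under kainate Bdnf averaged 11.36 ± 0.37 in mutants and 11.61 ± 0.32 in controls (SD, n = 3 each), a difference of -0.26 (SE 0.27, limma adjusted p = 0.585). Under saline it averaged 10.51 ± 0.42 in mutants and 10.59 ± 0.38 in controls, a difference of -0.08 (SE 0.27, limma adjusted p = 1). The genotypes overlapped under both treatments. Between arrays of the same number, mutants minus controls gave -0.36, -0.27 and -0.15 under kainate, against -0.17, -0.18 and 0.10 under saline. The replicate numbers were likewise taken from the data to pair mutant with control arrays. With the number as a block, the difference under kainate had a 95% interval of -0.49 to -0.03 but did not pass over all probe sets (unadjusted p = 0.0316, adjusted p = 0.508 in limma, which called 0.539%). Under saline the blocked difference did not pass either (limma adjusted p = 1, with 0.242% called).

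The kainate difference of Bdnf in mutants minus that in controls was -0.18 (SE 0.39, limma adjusted p = 0.939). Its 95% interval was -1.03 to 0.68, and -0.59 to 0.24 with the replicate 1 term. Both intervals hold 0, and they also hold a smaller response in mutants, so these data do not show that the genotypes responded alike. Averaged over treatments, Bdnf differed by -0.17 between mutants and controls (SE 0.19, 95% interval -0.60 to 0.26, limma adjusted p = 0.64). With the block the unadjusted p was 0.0419 and the adjusted p 0.538 in limma, with 0.998% called. No member was called for the interaction, where limma called 0% of all probe sets, with 107 at an unadjusted p under 0.05. No member was called between genotypes under kainate, under saline or on average, where 0.354%, 0.137% and 0.612% of probe sets were.

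Of 8 marker lists, 3 had array means that did not overlap between the genotypes. The mean of 9 microglial markers ranged from 7.63 to 8.04 on mutant arrays, against 6.78 to 7.001 on control arrays (log2). The mean of 6 astrocyte markers ranged from 9.93 to 10.34 on mutant arrays and from 9.63 to 9.90 on control arrays. The mean of 8 hippocampal neuron markers ranged from 6.86 to 7.07 on mutant arrays and from 7.12 to 7.53 on control arrays. The other 5 lists overlapped between the genotypes, and no list was tested. Their part in the values of the members was not tested either. In mutants the neuron markers ranged from 6.89 to 7.07 after kainate and from 6.86 to 6.94 after saline. In controls they ranged from 7.12 to 7.53 after kainate and from 7.28 to 7.32 after saline.

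**Figure D3:**
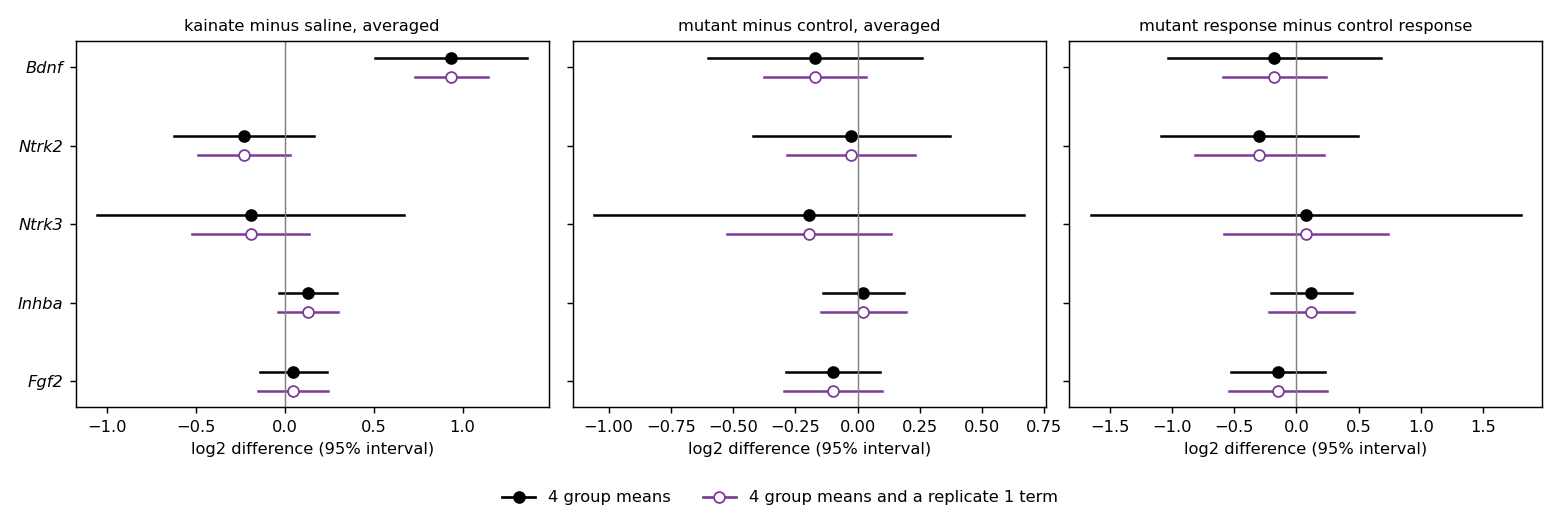
Log2 differences with 95% intervals for the 5 measured genes: kainate minus saline averaged over genotypes, mutant minus control averaged over treatments, and the response of mutants minus that of controls. Filled points are from 4 group means, and open points from the same model with a replicate 1 term. Only Bdnf in the kainate panel has intervals that leave out 0, at 0.51 to 1.36 from the group means.

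Ntrk2 encodes TrkB, the receptor of BDNF, and lies at chr13:58806472-59133970 in GRCm38.p6. Its probe set (99069_at, designed on M33385) read 3.90, 4.12 and 4.25 in mutants after kainate, against 4.14, 4.84 and 4.43 after saline (log2). In controls it read 3.74, 4.25 and 4.80 after kainate, against 4.13, 4.46 and 4.45 after saline. The groups overlapped in both genotypes, and 4.80, the highest control kainate value, came from the array of narrow scale. The mean level stood at the 49.8 percentile of all probe sets, a modest signal that limits what the lack of a call shows. The kainate difference was -0.38 in mutants (SE 0.25) and -0.08 in controls (SE 0.25), and -0.23 on average (SE 0.18, 95% interval -0.63 to 0.16, limma adjusted p = 0.851). Leaving out 1 array in turn gave -0.37 (without control kainate replicate 3) to -0.10 (without control kainate replicate 1) on average. In mutants it gave -0.54 (without mutant saline replicate 1) to -0.20 (without mutant saline replicate 2). With arrays weighted by their quality in limma, the difference was -0.51 on average (adjusted p = 0.0178) and -0.55 in mutants (adjusted p = 0.0324). That fit called 16.4% of all probe sets on average and 13% in mutants, and no other alternative called Ntrk2. The genotypes differed by -0.03 (SE 0.18, limma adjusted p = 0.941). TrkB has full-length and truncated forms, and which of them the probes read is not given in the sources used here.

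Ntrk3 encodes TrkC, the receptor of neurotrophin-3, and lies at chr7:78179986-78581034. Its probe set (95334_at, designed on AF035400) read 5.22, 5.95 and 6.19 in mutants after kainate, against 4.85, 6.62 and 6.36 after saline. In controls it read 5.12, 6.50 and 6.20 after kainate, against 5.34, 6.21 and 6.97 after saline. All groups overlapped, and the kainate difference was -0.19 on average (SE 0.39, 95% interval -1.06 to 0.67, limma adjusted p = 0.9). This wide interval went with the replicate number: replicate 1 was lowest in all 4 groups, by 1.24 log2 units on average. Without control kainate replicate 3 the kainate difference was -0.26. The genotypes differed by -0.20 (SE 0.39, limma adjusted p = 0.786).

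Ntrk2 and Ntrk3 varied with the replicate number, as Bdnf did. The replicate number accounted for 64.3% of the variance within groups in Ntrk2 and 87.8% in Ntrk3, but for 9.66% in Inhba and 15.0% in Fgf2. Replicate 1 of Ntrk2 was also lowest in all 4 groups, by 0.47 on average. The deviations from the group means correlated at 0.831 between Bdnf and Ntrk3, 0.76 between Ntrk2 and Ntrk3 and 0.562 between Bdnf and Ntrk2, over 12 arrays. These 12 values share pools, arrays and normalisation.

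Inhba lies at chr13:16004256-16031609 and encodes the subunit whose dimer is activin A. Its probe set (100277_at, designed on X69619) read 4.16, 4.54 and 4.21 in mutants after kainate, against 4.21, 4.08 and 4.05 after saline. In controls it read 4.14, 4.20 and 4.32 after kainate, against 4.19, 4.15 and 4.12 after saline. The groups overlapped in both genotypes, and a single mutant array, at 4.54, lay well above the rest. At the 48.7 percentile of all probe sets, the mean level was modest, which limits what the lack of a call shows. The kainate difference was 0.19 in mutants (SE 0.10) and 0.07 in controls (SE 0.10), and 0.13 on average (SE 0.07, 95% interval -0.03 to 0.29, limma adjusted p = 0.614). Without the highest mutant array, replicate 2, the difference was 0.07 in mutants and 0.07 on average. Without the array of narrow scale it was 0.02 in controls and 0.10 on average. The exact permutation test within genotype, over all arrays, gave p = 0.07, two-sided. The genotypes differed by 0.02 (SE 0.07, limma adjusted p = 0.869).

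Fgf2 lies at chr3:37348477-37410106 and encodes a growth factor for neurons and glia. Its probe set (93216_at, designed on AF065903) read 2.62, 2.60 and 2.64 in mutants after kainate, against 2.72, 2.62 and 2.60 after saline. In controls it read 2.65, 2.62 and 3.11 after kainate, against 2.77, 2.64 and 2.60 after saline. Of these 12 values, 11 lay between 2.60 and 2.77, below the lower quartiles of their arrays (2.80 to 2.96), and the highest came from the array of narrow scale, whose lower quartile was 3.20. The kainate difference was 0.05 on average (SE 0.09, limma adjusted p = 0.9), and -0.03 without that array. The genotypes differed by -0.10 (SE 0.09, limma adjusted p = 0.63). The Fgf2 window of the RefSeq promoter table, at chr3:37348403-37348652, lies partly inside the span given above, since the table takes a later start. It held the core TGACG at 6 and at 140 bases before that start, and neither 8-base element. The windows of Ntrk2 (chr13:58806319-58806568) and Inhba (chr13:16011601-16011850), which also precede a start inside the spans given, held none of the motifs, and Ntrk3 was not searched.

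**Figure D4:**
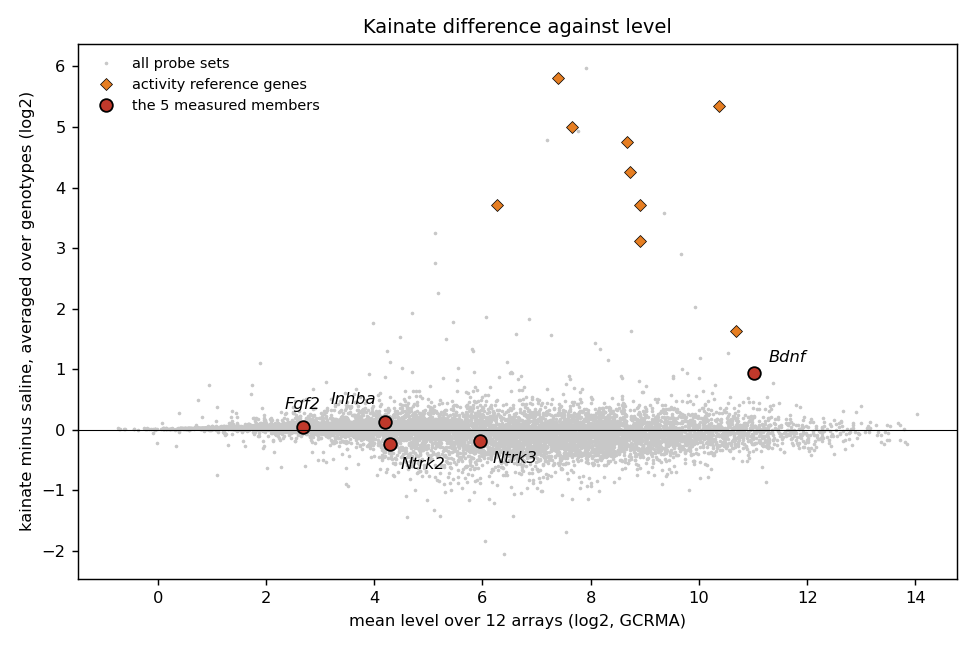
Kainate minus saline averaged over genotypes (log2, vertical) against the mean level over 12 arrays (log2, horizontal) for all 12422 probe sets, with the 5 members in red and 9 activity reference genes as orange diamonds. Bdnf lies at 0.94, below the reference genes (1.62 to 5.80), and the other 4 members lie within the cloud of all probe sets, between -0.23 and 0.13.

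Of 42 listed adaptors and kinases downstream of the Trk receptors 30 were measured. In the 7 comparisons, which called 0% to 0.942% of all probe sets, 0 of these 30 rose and 0 fell. Their median kainate difference was -0.02 on average, beside 0.03 over all probe sets, and the range was -0.28 to 0.22. Akt2, a kinase downstream of PI3 kinase, had the smallest p, at -0.28 (limma adjusted p = 0.192). Shc1 came next, with a genotype difference of 0.26 on average (limma adjusted p = 0.522). Akt2 passed with array weights (-0.34, limma adjusted p = 0.00485), which called 16.4% of all probe sets. It also passed within replicates 2 and 3 (-0.45, limma adjusted p = 0.0188, with 6.26% called). Of 14 genes for the processing and sorting of neurotrophins 11 were measured, and 0 passed in any of the same comparisons. Among them Cpe, carboxypeptidase E, which sorts proBDNF into the regulated pathway, differed by 0.26 with kainate on average (limma adjusted p = 0.291). Cpe passed after quantile normalisation (0.24, limma adjusted p = 0.00296, with 140 of 12422 probe sets called). It also passed with the replicate 1 term and no control kainate replicate 3 (0.27, limma adjusted p = 0.0304, with 572 called). The Cpe probe set stood at the 100 percentile of mean level (14.04, log2), close to the highest value on the arrays (14.35). Whether that level bears on the call after quantile normalisation was not tested. Plat, tissue plasminogen activator, which starts the cleavage of proBDNF by plasmin, differed by 0.25 between genotypes on average (limma adjusted p = 0.433).

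In the activin and TGF-beta pathway 37 of 38 genes were measured. With kainate on average 1 rose and 0 fell, where 0.942% of all probe sets were called. The gene that rose was Smad7, an inhibitory SMAD, with a difference of 0.88 (SE 0.17, 1.84-fold, limma adjusted p = 0.047). Smad7 averaged 7.21 ± 0.20 after kainate and 6.21 ± 0.08 after saline in mutants, and 7.07 ± 0.60 after kainate and 6.32 ± 0.17 after saline in controls (log2, SD, n = 3 each). The call was lost without any 1 of 10 arrays in turn, with adjusted p of 0.0556 to 0.145, and held without control kainate replicate 1 or 3. It was also lost with each array centred on its median (adjusted p = 0.143) and within replicates 2 and 3 (adjusted p = 0.0637). In neither genotype alone did it pass, although it passed in controls in 3 and in mutants in 4 of 23 alternatives. Without control kainate replicate 3 it passed in both, at 1.01 in mutants (limma adjusted p = 0.00777) and 1.09 in controls (limma adjusted p = 0.00894). That fit called 51 of 12422 probe sets in mutants and 48 in controls. The median of the list was 0.03, as over all probe sets.

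Of 35 FGF ligands, receptors and feedback inhibitors 29 were measured. Dusp6, a phosphatase that removes the activating phosphates of ERK, was the 1 gene that rose, by 1.24 in mutants (SE 0.13, adjusted p = 0.00148) and 1.28 in controls (SE 0.13, adjusted p = 0.00104) in limma. None fell. The list's median was 0.02 on average, beside 0.03 over all probe sets. Dusp6 is known to be induced by ERK signalling from many receptors. It was called in all 23 alternatives, but with its probe sets averaged the difference was 0.61 in mutants and 0.69 in controls.

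Of 35 other secreted factors and synaptic effectors of activity 27 were measured. With kainate on average 1 rose and 0 fell, where 0.942% of all probe sets were called. The gene that rose was Scg2, secretogranin II of dense-core vesicles, with a difference of 0.46 on average (SE 0.07, limma adjusted p = 0.0134). In controls it averaged 11.32 ± 0.20 after kainate and 10.75 ± 0.09 after saline (log2, SD, n = 3 each). It passed in controls (0.57, limma adjusted p = 0.0475) but not in mutants (0.35, limma adjusted p = 0.405), and the interaction was -0.22 (limma adjusted p = 0.939). The call in controls held in 6 of 23 alternatives and that on average in 18 of 23. In mutants Scg2 passed in 3 of 23, so these data do not show a rise in controls only.

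Genes with the array pattern most like that of Bdnf were, by Pearson's r over the 12 arrays among 5683 candidates, Rasd1 (0.949), Ina (0.936), Midn (0.923), Gadd45g (0.914) and Tspan13 (0.907). These correlations are descriptions and hold the group differences and the replicate 1 shift together. Rasd1, a small GTPase, differed by 0.94 with kainate on average (limma adjusted p = 0.0691), while Gadd45g, a stress-response gene, rose by 4.78 (limma adjusted p = 0.00052). Tspan13, a tetraspanin, rose by 0.45 (limma adjusted p = 0.0176). The genes most like Inhba were Atf5 (0.969), Spef1 (0.943), Phldb2 (0.923), Riox2 (0.904) and Zfp385a (0.878), and none of them passed the test for kainate on average. Inhba ranged only from 4.05 to 4.54 over the arrays. Its highest value, from mutant kainate replicate 2, lay apart from the rest (up to 4.32), and the correlations were not recomputed without that array.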

How the data were processed

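Hippocampal RNA was measured on 12 arrays. The deposited log2 values were used as given. Per the submitters' processing notes they come from GCRMA, run in R 2.4.1, which subtracts background and summarises probe sets. Of 12488 probe sets, 66 controls were left out and 12422 tested with no filter on level. Gene names came from the platform annotation, and 10817 of 10833 single symbols matched RefSeq by Entrez identifier. For a listed gene with several probe sets, the brightest one was used.

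limma 3.58.1 in R 4.3.3 was fitted with 1 mean per group to all 12 arrays (8 residual and 2.48 prior degrees of freedom), two-sided, with p-values adjusted by Benjamini-Hochberg over all probe sets and a threshold of 0.05. The fit, with and without its replicate block, was run on simulated data. These held no shift shared by replicate number, so the block was not tested on one. The number of arrays limits the precision. The members, gene lists and alternatives were chosen with earlier results of these data known. Named genes of a list were those that passed or, where none did, those with the smallest p in the averaged kainate and genotype comparisons. For Bdnf and Inhba the 5 genes with the highest correlation were named too. Array weights used limma's gene-by-gene method.

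Same-numbered arrays were checked for deviating together. Between kainate and saline, the correlations were 0.625, 0.408 and 0.447 in mutants, where the numbers were taken to pair the arrays (each over 0.1), and 0.368, 0.400 and -0.0109 in controls, where they were not. Between mutants and controls they were 0.745, 0.315 and 0.376 under kainate and 0.848, 0.583 and 0.621 under saline, and were taken to pair too. Arrays numbered 2 and 3 also deviated together across numbers, at 0.506 and 0.300 between mutant saline and mutant kainate. Between control saline and mutant saline these values were 0.568 and 0.522. The numbers thus set replicate 1 apart more clearly than replicate 2 from replicate 3. Promoter windows are from the RefSeq table of GRCm38.p6.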

Additional observations from a re-analysis of the deposited data

How the results depend on the processing

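With the replicate number as a block, Bdnf was called on average (0.94, adjusted p = 0.000163), in controls (1.02, adjusted p = 0.00143) and in mutants (0.85, adjusted p = 0.00659), so 1 member was called in each. No label states a pairing in either genotype, and 11 of 12 arrays correlated best with their own number, a hint from the data. The block called 48 probe sets in controls, against 41 without it, and 245 on average, against 117. With the replicate 1 term, 1 member was called in the same 3 comparisons (0.94, 1.02 and 0.85), and likewise without control kainate replicate 3 (1.00, 1.16 and 0.85, adjusted p = 0.000189, 0.00136 and 0.00503), a fit that called 572, 79 and 173 of 12422 probe sets. On average 1 member, Bdnf, was also called with probe sets above the median level (0.94, adjusted p = 0.0424, with 126 of 6211 called), an intensity trend and robust prior (0.94, 0.0478, with 110 of 12422), probe sets averaged per gene (0.94, 0.0467, with 105 of 8251) and replicates 2 and 3 only (0.88, 0.0132, with 778 of 12422). Array weights called 2 members, Bdnf and Ntrk2, on average (Bdnf 0.72, adjusted p = 0.00711) and in mutants (0.68, 0.0247), but they called 2036 and 1619 of all 12422 probe sets there, against 117 and 37 without weights. Leaving out each array in turn gave 0 to 1 member called on average, with Bdnf at 0.81 to 1.03 (adjusted p = 0.0368 to 0.149). Bdnf was called without control kainate replicate 1 or mutant kainate replicate 1.

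Some differences that did not pass changed sign, and the cause was not tested. Not all lay near 0: the genotype difference of Ntrk3 under saline was -0.23, with a wide SE of 0.55. Array weights gave 0.0085 for Fgf2 with kainate in mutants and 0.0037 for its interaction. They gave genotype differences of 0.19 for Ntrk3 under saline, under kainate and on average, and of 0.17 under kainate and 0.22 on average for Ntrk2. Median centring gave 0.021 for Fgf2 with kainate in mutants and 0.0082 for the averaged genotype difference of Ntrk2. Quantile normalisation gave -0.066 for the interaction of Ntrk3 and 0.0018 for Fgf2 between genotypes under saline. Replicates 2 and 3 gave 0.073 for Ntrk2 with kainate in controls, 0.012 for Fgf2 in mutants and -0.18 for the interaction of Ntrk3. The replicate 1 term without control kainate replicate 3 gave Fgf2 -0.048 with kainate in controls, -0.037 on average and 0.020 for the interaction. It gave -0.0048 for the interaction of Ntrk3, and genotype differences of Ntrk2 of 0.029 under kainate and 0.076 on average.

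Leaving out each array in turn also crossed 0. For Bdnf the interaction ran from -0.42 to 0.026 and the genotype difference under saline from -0.29 to 0.16. For Fgf2 kainate ran from -0.052 to 0.011 in mutants, -0.035 to 0.21 in controls and -0.031 to 0.090 on average, the interaction from -0.23 to 0.0080 and the genotype difference under saline from -0.062 to 0.028. For Inhba the genotype difference ran from -0.034 to 0.16 under kainate and -0.035 to 0.059 on average. For Ntrk2 kainate in controls ran from -0.35 to 0.18, and the genotype difference from -0.44 to 0.10 under kainate, -0.062 to 0.29 under saline and -0.16 to 0.11 on average. For Ntrk3 kainate ran from -0.70 to 0.18 in mutants, -0.65 to 0.18 in controls and -0.47 to 0.011 on average, the interaction from -0.47 to 0.49, and the genotype difference from -0.57 to 0.13 under kainate, -0.65 to 0.31 under saline and -0.40 to 0.079 on average.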
